A study of Mus musculus with 4 samples.

Results

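Matrix metalloproteinases (MMPs) are zinc-dependent enzymes that cleave the proteins of the extracellular matrix, and tissue inhibitors of metalloproteinases (TIMPs) are small secreted proteins that bind and block them. Most MMPs are secreted as inactive precursors, while a few, such as Mmp14, are anchored in the cell membrane and can activate other MMPs. In the mammary gland this system is known for its part in the branching of ducts and in the remodelling of the gland after lactation. Here 6 MMP genes (Mmp2, Mmp3, Mmp9, Mmp10, Mmp13 and Mmp14) and 3 TIMP genes (Timp1, Timp2 and Timp3) were read by their gene symbols, and all 9 were found among the 54446 genes of the table.

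RNA from 3D cultures of mouse mammary cells was sequenced in 4 libraries, to ask how mRNA levels differed when baicalin, a plant flavonoid, was added. The cells came from mammary glands of wild-type C57BL/6 mice, were sorted as basal or luminal by flow cytometry, and were grown in growth factor-reduced Matrigel, a basement membrane extract, in a medium with insulin, transferrin, selenium and EGF. The medium held DMSO or 100 μM baicalin, which gave 1 library each of basal cells with DMSO, basal cells with baicalin, luminal cells with DMSO and luminal cells with baicalin. By the study's methods the glands came from female mice some weeks old, but the labels give no age for these libraries and do not say whether cells of several mice were pooled. The sort took lineage-negative CD24+ cells and split them by CD29, high for basal and low for luminal. With 1 library per condition there were no replicates and a comparison within a label or a treatment could not be tested, so each comparison is between libraries.

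Levels are given as FPKM, a fragment count divided by exon length and library depth, which can be compared between genes because of the division by length. Fragments behind each value were recovered from the FPKM and the exon length, and between 19355784 and 20648563 fragments lay behind each library. All 95% intervals given below are exact intervals from these fragments, Poisson for a level and Clopper-Pearson for a ratio, and cover counting error only. They do not hold the spread between cultures or this difference in length.

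Most markers of the sorted cell types went against the labels. The summed FPKM of 10 basal (myoepithelial) markers was 1761 with DMSO and 479 with baicalin in the libraries labelled basal, and 5404 and 7199 in those labelled luminal. The summed FPKM of 10 luminal markers was 4175 and 2777 with the basal label, and 1237 and 1023 with the luminal label. Krt14, a keratin of basal cells, was the most abundant basal marker in each library, at 1494, 417, 2308 and 3132 FPKM in the order basal DMSO, basal baicalin, luminal DMSO, luminal baicalin. By the study's methods the purity of sorted cells was checked and kept high. Whether labels were exchanged was not tested, and basal and luminal are used below as the labels of the libraries only.

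Other cell types that can make MMPs were read from their markers too. Of 10 fibroblast markers none was at 0, and their summed FPKM was 8.03, 3.16, 17.2 and 14.0 in the same order of libraries, with Col1a1, Col1a1, Pdgfra and Fbln1 as the most abundant gene. Of 10 immune cell markers 2, 5, 1 and 2 were at 0, and their sum was 19.4, 55.9, 6.93 and 26.8 FPKM, led by Lyz2 in the first library and Cd68 in the other 3. The higher sum with baicalin under the basal label came from Cd68 alone, at 7.49 and 51.5 FPKM. Of the 5 immune markers above 0 in all 4 libraries, the other 4 (Lyz2, Csf1r, Cd79a and S100a8) were lower by sign there. The intervals for Cd79a and S100a8 held 1. Under the luminal label all 5 were higher by sign with baicalin, though the interval for Csf1r held 1. Ptprc (CD45), which defines blood cells and was part of the negative sort, had at most 0.0138 FPKM. The endothelial markers summed to between 1.57 and 5.61 FPKM, with none at 0 and Egfl7, Cdh5, Erg and Cdh5 as the most abundant gene.

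Secreted MMPs of the stromelysin and collagenase kind, Mmp3, Mmp10 and Mmp13, were lower with baicalin in the libraries labelled basal and higher with baicalin in those labelled luminal. Each was lower 5.35-fold or more under the first label and higher 2.99-fold or more under the second. These 3 genes lie in a cluster of 10 MMP genes on chromosome 9 (GRCm38, 7272514 to 7699585). Of the 10 fibroblast markers 9 were lower by sign with baicalin under the basal label and 8 were higher under the luminal label. Among these, Col1a1 was 2.94-fold lower (2.36 to 3.68) and 1.82-fold higher (1.53 to 2.18). Dcn was 1.92-fold lower (1.36 to 2.76) and 2.75-fold higher (2.08 to 3.65). The intervals for Pdgfrb and Dpt held 1 under both labels, and those for Thy1 and Col3a1 under the luminal label. Pdgfra and Fbln1, the most abundant fibroblast markers of the luminal DMSO library, were lower with baicalin under that label. They went from 6.30 to 1.67 FPKM and from 5.50 to 3.67 FPKM, and the sum of all 10 markers from 17.2 to 14.0. Col1a1 had at most 2.74 FPKM and Dcn at most 1.70 FPKM, and the part of fibroblasts in the result was not tested. Of the 10 basal markers 9 were lower by sign with baicalin under the basal label, and 5 were higher and 5 lower under the luminal label. The keratins among them went with Mmp3, Mmp10 and Mmp13. Krt14 was 3.58-fold lower (3.52 to 3.65) and 1.36-fold higher (1.35 to 1.37), and Krt17 2.30-fold lower (2.17 to 2.44) and 3.19-fold higher (3.12 to 3.26). Krt5 was 42.6-fold lower (35.9 to 50.9), from 128 to 3.01 FPKM, and 1.20-fold higher (1.19 to 1.21). Trp63, a transcription factor of basal cells, was 19.7-fold lower (14.9 to 26.5) and 1.07-fold higher (1.03 to 1.12). The 5 basal markers lower under the luminal label went against these 3 MMP genes there. Oxtr was 5.37-fold lower (4.79 to 6.04), Cnn1 3.40-fold (2.89 to 4.02) and Tagln 2.07-fold (1.96 to 2.18). Mylk was 1.75-fold lower (1.60 to 1.92) and Acta2 1.33-fold lower (1.31 to 1.36). The part of these changes in basal markers in the result was not tested. In bulk RNA, fewer cells of a type and less RNA per cell cannot be told apart.

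The stretches just before the starts of these 3 genes are shown because they share letters that the other members with a sequence do not have there. Each is the 100 bases before the transcription start of the RefSeq entry on GRCm38.p6, on the plus strand, 5′ to 3′. Capitals mark TGANTCA, the letters of an AP-1 site, which read the same on both strands. AP-1 is a dimer of Fos and Jun family proteins and is known from the promoters of several MMP genes.
Mmp3 (chr9:7445722-7445821): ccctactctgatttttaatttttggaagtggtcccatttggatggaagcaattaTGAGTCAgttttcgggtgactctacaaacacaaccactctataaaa
Mmp10 (chr9:7502242-7502341): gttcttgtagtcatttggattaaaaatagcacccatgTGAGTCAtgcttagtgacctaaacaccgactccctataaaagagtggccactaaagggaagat
Mmp13 (chr9:7272414-7272513): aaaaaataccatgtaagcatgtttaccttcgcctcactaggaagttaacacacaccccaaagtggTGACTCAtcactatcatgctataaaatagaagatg

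The AP-1 letters begin 46, 63 and 35 bases before the start in Mmp3, Mmp10 and Mmp13. Of all 32851 promoter windows in the RefSeq table, 2.73% hold these letters within the last 100 bases before the start. A TATAAA on either strand stands in the same 100 bases of all 3 genes, without overlap with the AP-1 letters. It begins 7, 29 and 16 bases before the start in Mmp3, Mmp10 and Mmp13. Of all windows 0.234% hold both. The 3 genes are of 1 family and 1 cluster, so these are not 3 independent matches to set against these shares. Among the 9 members 7 had a sequence, and Mmp14, Timp1, Timp2 and Timp3 had no such match in this window. Mmp2 and Mmp9 had no entry. A match describes the letters of the window and is not a measured binding site.

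Mmp3 (stromelysin-1, ENSMUSG00000043613, chromosome 9, 7445822 to 7455975, plus strand) degrades proteoglycans, laminin and fibronectin. It had 32.2 FPKM with DMSO and 6.02 FPKM with baicalin under the basal label, and 9.50 FPKM with DMSO and 43.5 FPKM with baicalin under the luminal label. The highest level was thus in the luminal baicalin library and the lowest in the basal baicalin library. With baicalin it was 5.35-fold lower (95% interval 4.63 to 6.21) under the basal label and 4.59-fold higher (4.07 to 5.18) under the luminal label. On the log2 scale with 1 FPKM added, which is used for all log2 changes below, these were changes of -2.24 and 2.09. A stretch of 284 bases of Mmp3 is 95.4% identical to the gene Gm15242, which was listed at 0 in all 4 libraries.

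Mmp10 (stromelysin-2, ENSMUSG00000047562, chromosome 9, 7502352 to 7510240) is a close relative of Mmp3 with similar substrates. Its levels were 15.1 FPKM with DMSO and 2.61 FPKM with baicalin under the basal label. In the libraries labelled luminal they were 0.960 FPKM with DMSO, from 32 fragments, and 5.91 FPKM with baicalin. Here the basal DMSO library was the highest and the luminal DMSO library the lowest. The level was 5.78-fold lower with baicalin (4.62 to 7.31) under the basal label and 6.15-fold higher (4.23 to 9.23) under the luminal label.

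Mmp13 (collagenase-3, ENSMUSG00000050578, chromosome 9, 7272514 to 7283331) cleaves fibrillar collagen and serves as the main interstitial collagenase of rodents. It had 53.4 FPKM with DMSO and 9.11 FPKM with baicalin under the basal label, and 1.31 and 3.93 FPKM under the luminal label. Both libraries labelled basal were above both labelled luminal, unlike Mmp3. With baicalin Mmp13 was 5.86-fold lower (5.33 to 6.46) under the basal label and 2.99-fold higher (2.27 to 3.99) under the luminal label.

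**Figure D1:**
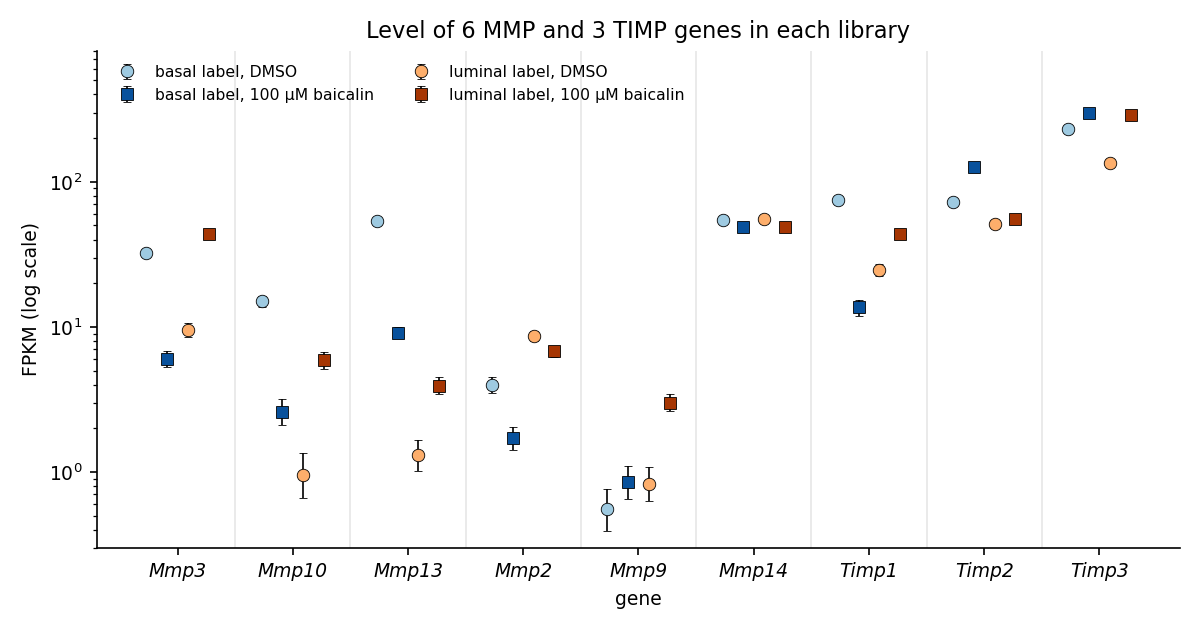
FPKM (log scale) of each of the 9 genes in the 4 libraries, with circles for DMSO, squares for baicalin and bars for exact Poisson 95% intervals of the fragments. Mmp3, Mmp10, Mmp13 and Timp1 move down from circle to square under the basal label and up under the luminal label, while the 4 points of Mmp14 lie between 48.5 and 55.0 FPKM.

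The gelatinases, which cleave denatured collagen and the type IV collagen of basement membranes, did not share this pattern. Mmp2 (gelatinase A, ENSMUSG00000031740, chromosome 8, 92827291 to 92853420) had 3.97 FPKM with DMSO and 1.71 FPKM with baicalin under the basal label, and 8.69 and 6.78 FPKM under the luminal label. It was lower with baicalin under both labels, 2.32-fold (1.86 to 2.91) and 1.28-fold (1.13 to 1.45). Its order over the 4 libraries was that of the summed fibroblast markers given above, but the luminal part of that order came from Pdgfra (6.30 to 1.67 FPKM with baicalin) and Fbln1 (5.50 to 3.67 FPKM). By sign, 9 of the 10 fibroblast markers went with Mmp2 under the basal label, and the 8 other than Pdgfra and Fbln1 went against it under the luminal label.

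Mmp9 (gelatinase B, ENSMUSG00000017737, chromosome 2, 164940780 to 164955850) had the lowest level of the members in each library, although in the luminal DMSO library its interval overlapped that of Mmp10. It had 0.555 FPKM (39 fragments) and 0.850 FPKM (61 fragments) with DMSO and baicalin under the basal label, a ratio of 1.53 (1.01 to 2.35). The luminal pair had 0.832 FPKM (57 fragments) with DMSO and 3.00 FPKM (219 fragments) with baicalin, which was 3.60-fold higher (2.68 to 4.91). Only the luminal baicalin library stood clear of the other 3 libraries. The immune cell markers S100a8 and S100a9 were also highest in that library. S100a8 had 1.52 and 1.35 FPKM under the basal label and 0.521 and 5.02 FPKM under the luminal label, 9.64-fold higher there (4.45 to 24.8). S100a9 went from 0.396 to 3.99 FPKM under the luminal label, 10.1-fold higher (3.66 to 38.7). Lyz2 and Cd68 were instead highest in libraries labelled basal. The part of immune cells in the Mmp9 result was not tested.

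Mmp14 (MT1-MMP, ENSMUSG00000000957, chromosome 14, 54431612 to 54445364), the membrane-anchored member and an activator of Mmp2, had the smallest spread of levels of the 9 genes over the 4 libraries. Its levels were 54.2 and 48.5 FPKM with DMSO and baicalin under the basal label, and 55.0 and 49.1 FPKM under the luminal label. The ratio of baicalin to DMSO was 0.896 (0.864 to 0.928) and 0.893 (0.861 to 0.925). Between the labels the intervals of the ratio held 1, with 0.981 to 1.05 for DMSO and 0.976 to 1.05 for baicalin, and the sign of these small differences turned under TPM scaling.

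Among the inhibitors, Timp1 followed the stromelysins in direction and the other two did not. Timp1 (ENSMUSG00000001131, chromosome X, 20870166 to 20874735), an inhibitor of most secreted MMPs, had 74.9 FPKM with DMSO and 13.6 FPKM with baicalin under the basal label. The luminal pair had 24.6 FPKM with DMSO and 43.7 FPKM with baicalin. The basal DMSO library was the highest and the basal baicalin library the lowest. With baicalin it was 5.51-fold lower (4.80 to 6.34) under the basal label and 1.78-fold higher (1.58 to 2.01) under the luminal label, log2 changes of -2.38 and 0.81.

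Timp2 (ENSMUSG00000017466, chromosome 11, 118301069 to 118355740) inhibits MMPs and also takes part with Mmp14 in the activation of Mmp2. It had 72.3 FPKM with DMSO and 127 FPKM with baicalin under the basal label, 1.76-fold higher (1.70 to 1.82). With the luminal label it had 51.4 and 55.0 FPKM, 1.07-fold higher (1.03 to 1.12). The luminal pair was thus close together and below the basal pair.

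Timp3 (ENSMUSG00000020044, chromosome 10, 86300372 to 86349506), which binds to the matrix and also inhibits ADAM proteases, was the most abundant member in each library. It had 231 and 296 FPKM with DMSO and baicalin under the basal label, 1.28-fold higher (1.26 to 1.30). In the luminal pair it had 134 and 288 FPKM, 2.14-fold higher (2.11 to 2.17). The luminal DMSO library stood below the other 3. Of the exon bases of Timp3, 1733 of 8144 overlap those of Syn3 on the opposite strand. Syn3 had at most 0.122 FPKM, but whether fragments were counted by strand is not given in the sources used here, so the split of fragments in the overlap is uncertain.

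**Figure D2:**
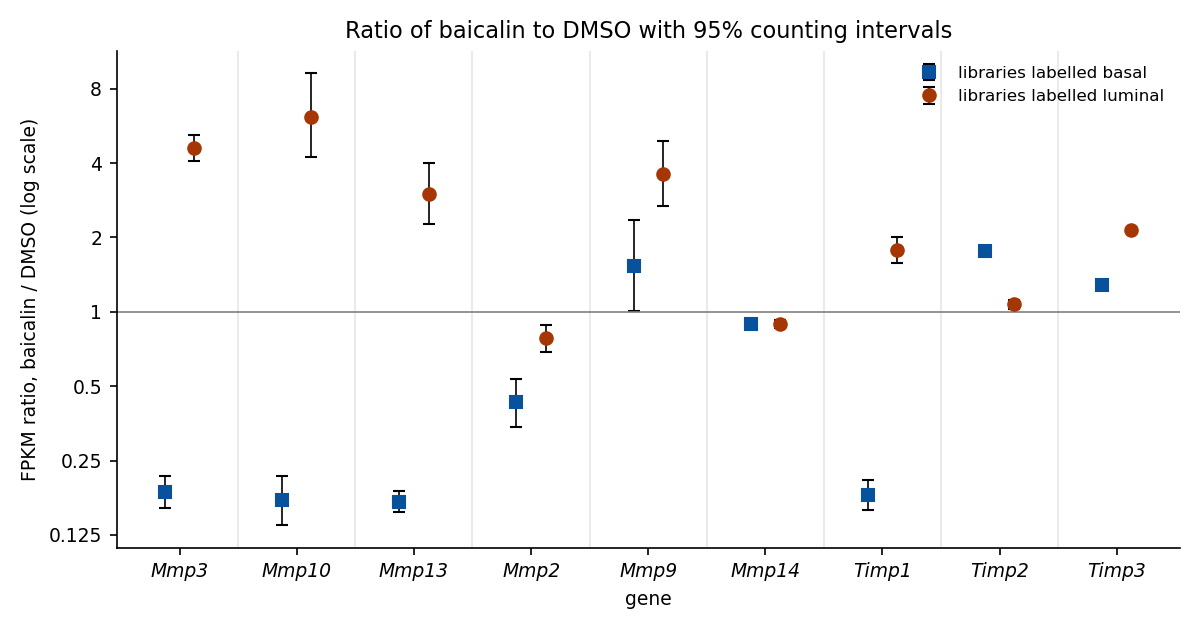
FPKM ratio of baicalin to DMSO for the 9 genes (log scale, line at 1), with squares for the libraries labelled basal, circles for those labelled luminal and bars for exact 95% counting intervals. The ratios of Mmp3, Mmp10, Mmp13 and Timp1 lie between 0.171 and 0.187 under the basal label and between 1.78 and 6.15 under the luminal label, and those of Mmp14 are 0.896 and 0.893.

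A change of more than 1 on the log2 scale was counted over the 17787 genes that every library detected (FPKM above 0), and all 9 members passed this filter. With the basal label 4 members were lower by more than 1 with baicalin (Mmp3, Mmp10, Mmp13 and Timp1) against 3.33% of all genes, and 0 were higher against 2.15%. With the luminal label 5 were higher by more than 1 (Mmp3, Mmp9, Mmp10, Mmp13 and Timp3) against 2.37% of all genes, and 0 were lower against 1.59%. The median log2 change of the 9 members was -0.88 and 1.09 under the 2 labels, beside 0.01 and -0.02 for all genes. Mmp3, Mmp10 and Mmp13 were lower by more than 1 under the basal label and higher by more than 1 under the luminal label, as were 40 of all genes, or 0.225%. No member had the reverse pair of changes, which 0.0337% of all genes had. By sign alone 4 members (these 3 and Timp1) were lower under the basal label and higher under the luminal label, against 17.7% of all genes. The members were chosen with earlier results of these data known, so their counts and medians describe them and are not independent of that choice. A gene below 1 FPKM in both libraries cannot pass 1 with 1 FPKM added, and such genes are part of all genes. The difference between the labels itself was not tested.

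The order of levels within a library also differed. With DMSO under the basal label, Timp3 was followed by Timp1 and Timp2, whose intervals overlapped, then Mmp14 and Mmp13, whose intervals overlapped too, and then Mmp3, Mmp10, Mmp2 and Mmp9. With baicalin under this label the order was Timp3, Timp2, Mmp14, Timp1, Mmp13, Mmp3, Mmp10, Mmp2, Mmp9, with no overlap between neighbours. With DMSO under the luminal label it was Timp3, Mmp14, Timp2, Timp1, Mmp3, Mmp2, Mmp13, Mmp10, Mmp9, and the intervals overlapped between Mmp3 and Mmp2 and among the last 3. With baicalin under that label it was Timp3, Timp2, Mmp14, Timp1, Mmp3, Mmp2, Mmp10, Mmp13, Mmp9, and the intervals overlapped between Timp1 and Mmp3 and between Mmp2 and Mmp10.

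Summed over the 6 MMP genes, the level was 159 FPKM with DMSO and 68.8 FPKM with baicalin under the basal label, and 76.3 and 112 FPKM under the luminal label. Mmp14 held 34.0% of this sum in the basal DMSO library, 70.5% in the basal baicalin library, 72.1% in the luminal DMSO library and 43.8% in the luminal baicalin library. Mmp13 was the most abundant of the 5 secreted MMPs in both libraries labelled basal, and Mmp3 in both labelled luminal. The 3 TIMP genes summed to 379 and 437 FPKM under the basal label and 210 and 386 FPKM under the luminal label, with Timp3 holding 61.1% to 74.4% of it. The TIMP sum over the MMP sum was 2.37 with DMSO and 6.35 with baicalin under the basal label, and 2.76 and 3.44 under the luminal label. These are ratios of transcripts, not of proteins.

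**Figure D3:**
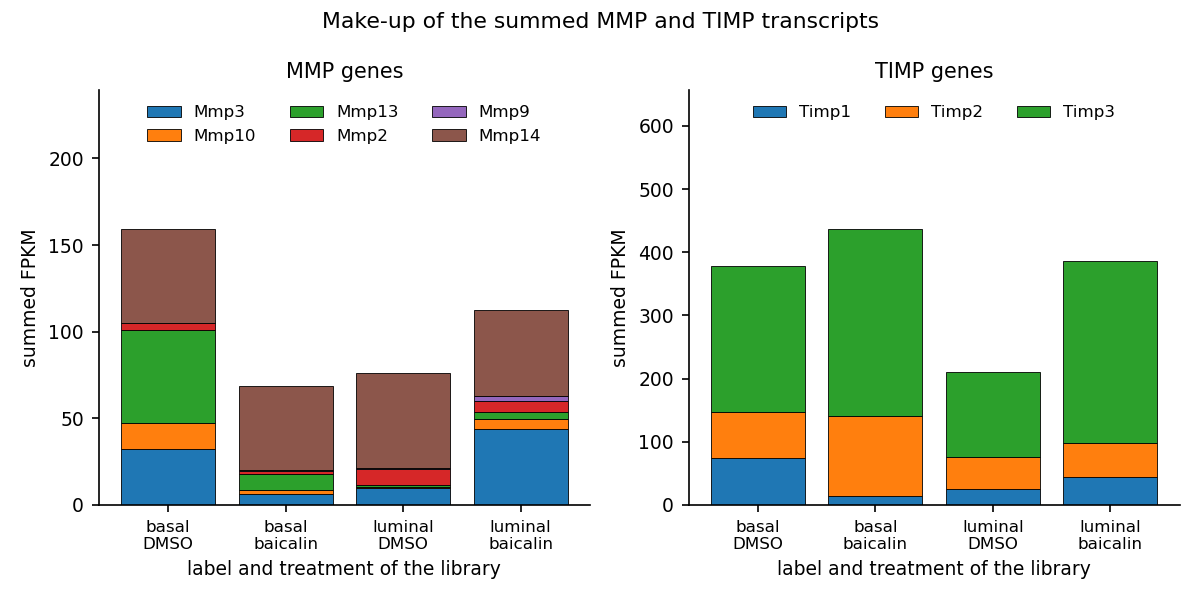
Summed FPKM of the 6 MMP genes (left) and the 3 TIMP genes (right) in the 4 libraries, stacked by gene on axes that start at 0. The Mmp14 part is of similar height in each library, and the change of the MMP sum from 159 to 68.8 FPKM under the basal label comes mostly from the thinner Mmp3, Mmp10 and Mmp13 parts.

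Between the labels, the same libraries as above were compared the other way, so these values are not independent of those with baicalin. With DMSO, the log2 change was below -1 for 4 members under the luminal label relative to the basal label, against 3.86% of all genes, and 0 were higher, against 4.71%. Mmp13 differed most, 40.6-fold lower (32.0 to 52.5), followed by Mmp10, 15.7-fold lower (11.0 to 23.2). Mmp3 was 3.40-fold lower (3.00 to 3.85) and Timp1 3.05-fold lower (2.73 to 3.41). With baicalin, Mmp2, Mmp3, Mmp9 and Timp1 were higher by more than 1 under the luminal label, against 5.24% of all genes, and Mmp13 and Timp2 were lower, against 2.99%. Mmp3 was 7.23-fold higher there (6.28 to 8.36) and Timp1 3.22-fold higher (2.78 to 3.73).

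Of the 23 genes of the MMP family, 15 were above 0 in all 4 libraries. With baicalin 4 of them were lower by more than 1 under the basal label (Mmp3, Mmp10, Mmp12 and Mmp13) and 5 were higher under the luminal label (Mmp3, Mmp9, Mmp10, Mmp13 and Mmp28), against 3.33% and 2.37% of all genes, with medians of -0.18 and 0.26. Apart from Mmp12 and Mmp28 these are the members counted above. Mmp12 (macrophage elastase, ENSMUSG00000049723) neighbours Mmp13 in the cluster on chromosome 9. It had 8.94 and 2.11 FPKM with DMSO and baicalin under the basal label, 4.25-fold lower (3.75 to 4.83). The luminal pair had 0.0785 FPKM from 11 fragments and 0.542 FPKM from 81 fragments, a ratio of 6.90 (3.66 to 14.4). Its direction was therefore that of Mmp3, Mmp10 and Mmp13.

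Macrophage genes are given beside Mmp12 because it is named for that cell. Lyz2 had 8.84 and 2.17 FPKM under the basal label and 0.903 and 2.61 FPKM under the luminal label, while Cd68 had 7.49, 51.5, 4.44 and 13.7 FPKM in the same order. Csf1r, the receptor of a macrophage growth factor, had 0.340 and 0.0908 FPKM under the basal label, 3.62-fold lower (1.82 to 7.84), and at most 0.0496 FPKM under the luminal label. Adgre1, a defining macrophage marker, had at most 0.0449 FPKM. With baicalin Lyz2 went in the direction of Mmp12 under both labels, 4.07-fold lower (3.04 to 5.52) and 2.89-fold higher (1.79 to 4.85). Csf1r did so under the basal label, while its ratio under the luminal label was 1.41 with an interval that held 1 (0.333 to 6.77). Cd68 was higher under both labels and so went with Mmp12 under the luminal label only. The part of macrophages in the result was not tested beyond these values.

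The other genes of the cluster were low. Mmp1b, a copy of the interstitial collagenase gene, had 25 and 3 fragments under the basal label and 0 and 8 under the luminal label, at most 0.869 FPKM. It shares 157 exon bases with Mmp12 on the opposite strand, so the fragments of both are uncertain there. Mmp8, Mmp27 and Mmp7 had at most 0.220, 0.0684 and 0.142 FPKM, and Mmp1a and Mmp20 were listed at 0 in all 4 libraries. The AP-1 letters stand within the last 100 bases before a start in 8 of the 23 MMP, TIMP and Reck genes that had a RefSeq window, and all 8 lie in this cluster of 10. Over all genes with a window the share is 3.18%, and Mmp7 and Mmp12 have 2 windows each, of which 1 holds the letters. Among them are Mmp1a and Mmp20, which were listed at 0.

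**Figure D4:**
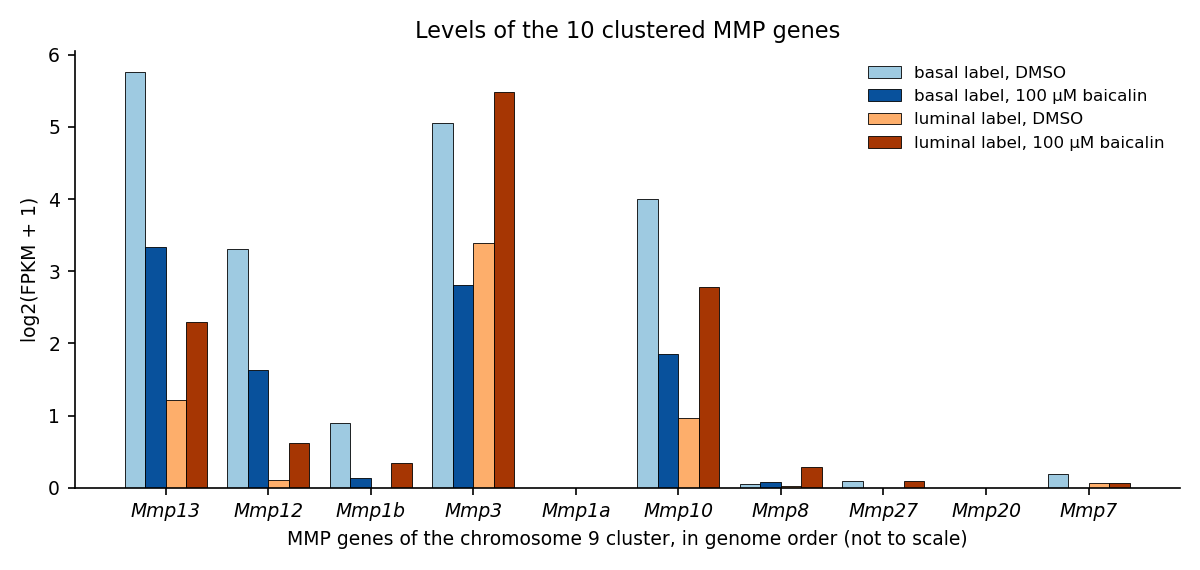
Levels as log2(FPKM + 1) of the 10 MMP genes of the chromosome 9 cluster, in genome order and not to scale, with 1 bar per library. Mmp13, Mmp12, Mmp3 and Mmp10 carry nearly all of the signal, each lower with baicalin under the basal label and higher under the luminal label, and the other 6 genes stay below 1 FPKM.

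Outside the cluster, Mmp28 (epilysin, ENSMUSG00000020682), which is found in epithelia, had 0.195 and 0.356 FPKM under the basal label and 0.293 and 2.08 FPKM under the luminal label. It was 7.07-fold higher with baicalin (4.52 to 11.6) under the luminal label, and the interval under the basal label held 1 (0.943 to 3.68). Of its 3874 exon bases 466 overlap a gene on the opposite strand. Mmp15, a membrane-anchored relative of Mmp14, had 8.64, 13.6, 7.95 and 7.59 FPKM in the order basal DMSO, basal baicalin, luminal DMSO, luminal baicalin, a ratio of 1.57 (1.45 to 1.71) and of 0.954 (0.866 to 1.05). Mmp11 (stromelysin-3), of whose 2778 exon bases 155 overlap Chchd10 on the opposite strand, had 3.05, 5.32, 2.10 and 1.71 FPKM, and Mmp23 had 1.12, 0.695, 2.63 and 2.75 FPKM. Neither Mmp15, Mmp11 nor Mmp23 passed 1 on the log2 scale under either label with baicalin.

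Of the inhibitors not among the members, Timp4 was listed at 0 in all 4 libraries. Reck, a membrane-bound inhibitor of MMPs, had 0.527 and 1.22 FPKM under the basal label and 1.89 and 1.16 FPKM under the luminal label. It was 2.31-fold higher (1.65 to 3.28) and 1.64-fold lower (1.29 to 2.09) with baicalin, opposite in direction to Mmp3, Mmp10 and Mmp13 under both labels.

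The plasminogen system activates several secreted MMPs, and its genes were read as a list. Of 11 genes 10 were tested, and with baicalin 2 were lower by more than 1 under the basal label and 1 was higher under the luminal label. Over all genes 3.33% were lower and 2.37% higher by this measure. The median log2 change of the list was -0.86 and 0.68, beside 0.01 and -0.02 for all genes. Plau, the urokinase-type activator, had 87.1 and 44.5 FPKM under the basal label and 48.5 and 94.4 FPKM under the luminal label, 1.96-fold lower (1.86 to 2.06) and 1.95-fold higher (1.85 to 2.05). Plat, the tissue-type activator, was 2.46-fold lower (2.13 to 2.85) and 1.92-fold higher (1.66 to 2.23). Plaur, the receptor of urokinase, did not share the first direction and was 1.45-fold higher (1.35 to 1.56) and 3.52-fold higher (3.01 to 4.13).

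Inhibitors of plasminogen activators were mixed. Serpinb2 had 2.70 and 0.672 FPKM under the basal label and 9.04 and 19.1 FPKM under the luminal label, 4.02-fold lower (2.71 to 6.13) and 2.11-fold higher (1.88 to 2.38). Serpine2 had a log2 change of -1.15 under the basal label and of 0.02 under the luminal label.

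Among genes of the basement membrane and other matrix proteins that MMPs cleave, 20 of 21 were tested. With baicalin 1 was higher and 2 were lower by more than 1 under the basal label, and 3 were higher and 0 lower under the luminal label, with medians of -0.18 and 0.39. The shares over all genes were 2.15% and 3.33% under the basal label and 2.37% and 1.59% under the luminal label. Tnc (tenascin C) had 111 and 29.6 FPKM under the basal label and 52.0 and 133 FPKM under the luminal label, 3.76-fold lower (3.64 to 3.88) and 2.55-fold higher (2.48 to 2.62). Nid1 (nidogen-1), which links laminin to type IV collagen, was higher under both labels, 2.81-fold (2.58 to 3.07) and 6.35-fold (5.99 to 6.75). Lama3, a laminin chain of epithelial basement membranes, was 1.36-fold lower (1.29 to 1.44) and 2.56-fold higher (2.49 to 2.64). Sparc, a collagen-binding matrix protein, was 3.99-fold lower (3.34 to 4.79) and 1.38-fold lower (1.34 to 1.41).

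**Figure D5:**
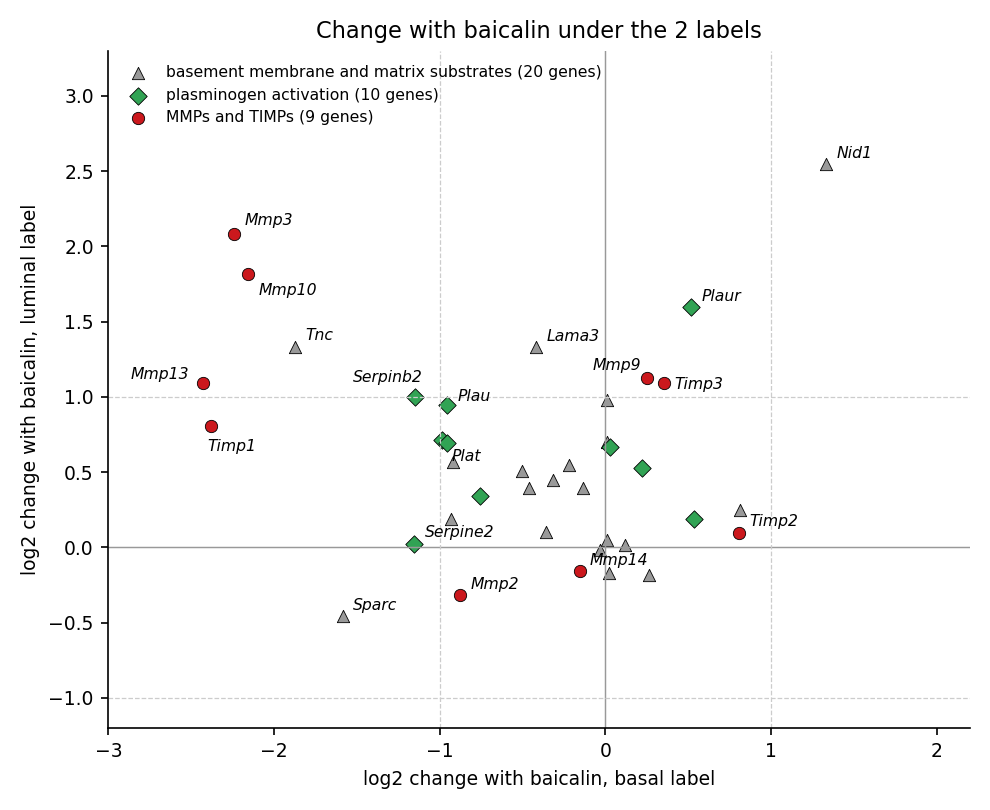
Log2 change with baicalin under the basal label (x axis) and the luminal label (y axis) for the MMPs and TIMPs (circles), the plasminogen list (diamonds) and the matrix list (triangles), with dashed lines at -1 and 1. Mmp3, Mmp10 and Mmp13 lie in the upper left beyond both dashed lines, as does Tnc, and Nid1 lies in the upper right.

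Of 15 genes for partners and activators of MMPs 14 were tested, and 0 passed 1 on the log2 scale under either label, with medians of -0.10 and 0.09. Over all genes 2.15% were higher and 3.33% lower under the basal label, and 2.37% and 1.59% under the luminal label, so a count of 0 among 14 is near the background. Pcsk6, a proprotein convertase, had a log2 change of -0.95 under the basal label. Cd44, a surface receptor that docks Mmp9, had 199 and 122 FPKM under the basal label and 94.1 and 157 FPKM under the luminal label, log2 changes of -0.71 and 0.73. Itgb3, an integrin chain, had a log2 change of -0.83 under the basal label, and Spint1, an inhibitor of matriptase, and Lrp1, a receptor that clears MMPs, had 0.79 and 0.69 under the luminal label.

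AP-1 and ETS factors are known regulators of MMP genes, and 13 of them were read. With baicalin 0 passed 1 on the log2 scale under the basal label, and 1 was higher by more than 1 under the luminal label. Over all genes 2.15% were higher and 3.33% lower under the basal label, and 2.37% were higher under the luminal label. The gene past 1 was Fosl1 (Fra-1), at 11.9 and 21.5 FPKM under the basal label and 2.21 and 9.50 FPKM under the luminal label, higher with baicalin 1.81-fold (1.61 to 2.02) and 4.30-fold (3.40 to 5.49). Fos had 30.6 and 45.8 FPKM under the basal label and 59.7 and 29.8 FPKM under the luminal label, 1.49-fold higher (1.40 to 1.60) and 2.01-fold lower (1.88 to 2.14). The direction of Fos was thus opposite to that of Mmp3, Mmp10 and Mmp13 under both labels, and that of Fosl1 under the basal label. Fosb, named after its values were seen, went with these 3 genes, at 5.77 and 4.72 FPKM under the basal label, 1.22-fold lower (1.09 to 1.36), and at 1.59 and 2.64 FPKM under the luminal label, 1.66-fold higher (1.39 to 1.99). Jun and Jund, named in the same way, went opposite to these 3 genes under both labels. Jun was 1.11-fold higher (1.06 to 1.17) and 1.73-fold lower (1.68 to 1.78). Jund was 1.33-fold higher (1.25 to 1.40) and 1.58-fold lower (1.49 to 1.67). Junb was higher under both labels, 1.11-fold (1.06 to 1.17) and 1.26-fold (1.20 to 1.33). The median log2 change of the 13 genes was 0.15 and -0.07, beside 0.01 and -0.02 for all genes. Fosl2 was higher under both labels, with log2 changes of 0.38 under the basal and 0.91 under the luminal label. In the same order Elf3 had 0.58 and -0.28, and Etv4 had -0.63 and -0.12.

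Genes whose levels followed the members most closely over the 4 libraries were found by the distance between centred log2(FPKM + 1) values, among 8571 protein-coding genes with at least 5 FPKM in a library. For Mmp3 these were Stmn2 and Tnc, at distances of 0.399 and 0.593. Stmn2 had 5.52 and 0.343 FPKM under the basal label and 1.74 and 10.1 FPKM under the luminal label. For Mmp10 they were Lyz2 and Flnc (0.732 and 0.898), for Mmp13 Ccl2 and Slfn2 (0.845 and 0.870) and for Timp1 Masp1 and Tmprss4 (0.215 and 0.263). Ccl2, a chemokine, had 33.6 and 4.03 FPKM under the basal label and 1.18 and 4.04 FPKM under the luminal label. With 4 libraries such likeness is a description, and no Mmp gene was among the nearest genes of another.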

How the data were processed

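The authors deposited FPKM for 54446 genes in 4 libraries, with no scaling between libraries stated. By the study's methods, poly(A)-enriched RNA went into a stranded kit, and reads were aligned with HISAT2 to GRCm38 and counted with featureCounts. The submitters' processing notes also name Bowtie 0.12.2 and mm8, with no role. Exon lengths and positions came from GENCODE mouse release M21 (GRCm38), which covered 54409 genes. Depth was the number of fragments that made FPKM times exon length whole, and at least 99.0% of low genes came out whole within 0.1 fragment. One fragment on 1 kb of exons was worth 0.0484 to 0.0517 FPKM.

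Changes were log2 ratios with 1 FPKM added, on genes above 0 in all 4 libraries, as the study kept, and a change past 1 was counted. The t-test of the study's methods needs replicates and was not run. The members, gene lists and markers were chosen with earlier results of these data known. Named genes were the members, MMP and inhibitor genes of at least 1 FPKM, and the 3 largest log2 changes per list and label (44 genes in all), besides the cell markers and the 2 genes of most similar pattern for members with at least 5 FPKM and a log2 range of at least 2. Syn3, Gm15242, Fosb, Jun, Junb, Jund and MMP genes under 1 FPKM were added after their values were seen. Similar transcripts were sought with blastn 2.17.0 (at least 95% identity over 200 bases). Alternatives were an added 0.1 FPKM, no filter on low FPKM, TPM scaling, centring, and at least 10 fragments. Computation was tested on simulated data. Scripts ran in Python 3.11.15 with scipy 1.17.1 for the intervals, pandas 2.3.3 and numpy 2.4.6, and figures were drawn with matplotlib 3.10.9.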

Additional observations from a re-analysis of the deposited data

Results flagged for a closer look

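Opposite directions with baicalin under the 2 labels, each with an interval of the ratio that did not hold 1, were found for 19 of 44 genes, the members and the genes named from the family and gene lists. Cell markers and genes of similar pattern were not counted, although some, such as Krt14 (ratios of 0.279 and 1.36) and Col1a1 (0.340 and 1.82), had opposite directions too. Genes named after their values were seen were not counted either, and of these Fosb, Mmp1b, Jun and Jund had such opposite directions. Over the 17781 genes with all fragment counts recovered the share was 10.6%, with 926 genes lower under the basal label and higher under the luminal label and 960 the reverse. Many of the 44 were named for the size of their change, so their count is not comparable with that share. The difference between the labels was not tested, since each condition has 1 library. It is given as the log2 change under the luminal label minus that under the basal label. Among the members it was 4.33 for Mmp3, 3.97 for Mmp10, 3.52 for Mmp13 and 3.19 for Timp1. Of the list genes, Tnc had a difference of 3.21, Adam12 of 2.60, Adam8 of 2.42, Mmp12 of 2.19 and Serpinb2 of 2.15. Smaller differences were those of Adamts4 (1.91), Plau (1.90), Lama3 (1.75), Plat (1.70), Cd44 (1.44), Adamts8 (1.18) and Adam10 (0.39). In these 16 genes the level was lower under the basal label and higher under the luminal label. In the other 3 it was the reverse, with -1.55 for Fos, -0.96 for Reck and -0.86 for Elf3.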

How the results depend on the processing

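Over the 5 alternatives, 178 of 180 log2 changes of the members kept their sign and 175 kept their side of 1. The sign exceptions were those of Mmp14 between labels under TPM scaling, from 0.02 to -0.09 with DMSO and from 0.02 to -0.05 with baicalin. Mmp2 passed -1 with baicalin under the basal label with 0.1 FPKM added (-1.17) and under TPM scaling (-1.13), and passed 1 between labels with DMSO with 0.1 FPKM added (1.11). Mmp10 passed 1 between labels with baicalin under the same alternatives (1.15 and 1.03). Counts of genes past 1 were larger with 0.1 FPKM added, which by construction widens the log2 changes of low genes, and with TPM, which multiplies each FPKM by 3.37 to 3.64 before 1 is added and so acts like a smaller added value. With 0.1 FPKM added, baicalin against DMSO gave 1123 genes higher and 1302 lower under the basal label (383 and 592 in the main analysis) and 1052 and 913 under the luminal label (421 and 282). Luminal against basal label gave 2027 higher and 1467 lower with DMSO (837 and 686) and 2030 and 1327 with baicalin (932 and 531). With TPM these counts were 696 and 1002, 718 and 578, 1306 and 1279, and 1439 and 1083. No filter on low FPKM, centring and at least 10 fragments kept every count within 1.5 times. No replicate could be left out, and no paired analysis was possible because each comparison sets 1 library against 1. A fit of baicalin over both labels, with the label as a block, was not made. Depth limits Mmp9 and Mmp10 most, with 39 and 32 fragments in their lowest library.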

Other observations

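ADAM proteases, which shed proteins from the cell surface, had 8 of 9 genes tested. With baicalin 0 passed 1 on the log2 scale under the basal label, against 2.15% of all genes higher and 3.33% lower, and 2 were higher by more than 1 under the luminal label, against 2.37% of all genes, with medians of -0.05 and 0.23. Adam8 had 9.42 and 8.31 FPKM with DMSO and baicalin under the basal label and 3.97 and 22.8 FPKM under the luminal label, 5.74-fold higher there (5.13 to 6.44). Adam12 had 21.9, 14.7, 4.32 and 21.2 FPKM in the same order, 4.89-fold higher under the luminal label (4.55 to 5.26). Adam10, a widely expressed sheddase, had 57.1, 52.4, 55.2 and 66.7 FPKM, and Adam19 had at most 1.06 FPKM.

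ADAMTS proteases, secreted relatives that cleave proteoglycans and process collagen, had 15 of 19 genes tested. With baicalin 1 was lower by more than 1 under each label, against 3.33% and 1.59% of all genes, and 0 were higher, against 2.15% and 2.37%. Under the basal label this was Adamts4, an aggrecan-cleaving enzyme, from 7.94 to 2.10 FPKM, 3.78-fold lower (3.23 to 4.43). Under the luminal label it was Adamts3, a procollagen-processing enzyme, from 4.99 to 1.60 FPKM, 3.12-fold lower (2.63 to 3.72). Adamts8 and Adamts7 had log2 changes of -0.95 and -0.80 under the basal label, and Adamts15 and Adamts10 of 0.81 and -0.71 under the luminal label.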
